A study of Homo sapiens with 2 samples.

Results

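The RNA splicing and RNA helicase genes are 180 genes, read by 182 probe sets, out of 13864 genes that carry a name on these arrays. They were taken by gene symbol alone: SR proteins (SRSF, SRRM, TRA2), hnRNP and PTB proteins, SF1 and U2AF, Sm, LSm and other snRNP proteins, PRPF and CWC factors with CDC5L, numbered RBM proteins, CLK kinases, MBNL, ESRP and CELF genes, and the DDX and DHX helicases. The interferon-related DDX58, DDX60, DDX60L and DHX58 were left out. The symbol rule also took in 9 transcribed pseudogenes and 4 antisense or other long noncoding RNAs, which leaves 167 protein-coding genes. No named probe set used here carried an SF3A, SF3B or RBFOX symbol. The only CELF symbol was that of the noncoding CELF2-AS2, below the level limit defined later, and the only LSm symbol was LSM12.

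The samples were PC3 cells, a human prostate cancer line, in 2 stable derivatives grown in medium with 10% FBS. The miR-95 derivative overexpressed the microRNA miR-95, and the control derivative overexpressed a control microRNA. Each was measured on 1 Affymetrix gene array, which leaves every value below without a replicate error and without a test; all statements describe these 2 arrays. The labels give neither the promoter that drove the microRNAs nor whether either line was 1 clone.

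Splicing removes introns from pre-messenger RNA. It is carried out by the spliceosome, which assembles on each intron from the U1, U2, U4, U5 and U6 small nuclear ribonucleoproteins (snRNPs). SR proteins generally promote the use of nearby exons and hnRNP proteins often repress it, and CLK kinases control SR proteins by phosphorylation. RNA helicases of the DEAD-box (DDX) and DEAH-box (DHX) families use ATP to remodel RNA and protein contacts, in the spliceosome and also in ribosome assembly, export, translation and decay.

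The overexpressed microRNA recognises messenger RNAs through its seed, bases 2 to 8, printed here in capitals because it is the sequence that defines the treatment. Both mature arms come from RefSeq (GRCh38.p14), from the minus strand at chr4:8005312-8005333 for the 3p arm and chr4:8005347-8005367 for the 5p arm. The labels do not say which arm was overexpressed, and seed matches in the members' transcripts were not searched for here.
hsa-miR-95-3p: uUCAACGGguauuuauugagca
hsa-miR-95-5p: uCAAUAAAugucuguugaauu

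Messenger RNAs of the splicing and helicase genes were close to equal on the 2 arrays. Values are the deposited log2 values, and a difference is miR-95 minus control after each array was centred on its median, which lowered miR-95 relative to control by 0.035. A gene was compared when its mean over both arrays was at or above the median of all genes, a level of 7.485 as deposited, and 140 of the 180 members reached that limit. All 140 also read above that level on each array, the lowest at 7.55 in miR-95 cells and 7.64 in control cells. Among all genes that passed, the lowest values were 7.1 in miR-95 cells and 7.3 in control cells, so some passed with 1 array below the limit. The 140 members had a median difference of -0.045, against -0.035 for all 6938 genes above the limit. A limit of 0.32 on the log2 scale was used for a difference worth naming, which is 25% higher or 20% lower. Past it, 2 members were higher in miR-95 cells, a share to be read against 2.93% of all genes, and 2 were lower, against 5.09% of all genes. Together these 4 are 2.86% of the 140 members, against 8.01% of all genes. At 1.5-fold 0 members differed, against 1.14% of all genes (0.346% higher and 0.793% lower).

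Small differences leaned to the negative side. Of the 140 members, 97 had a negative and 43 a positive difference, so 69.3% were negative, against 59.5% of all genes. Both shares depend on the centring: with the values as deposited they were 55% and 47.95%. The class medians given below move with it too, and so do most of the sign counts by class, which are to be read against the 59.5%. As deposited, 7 of 14 PRPF, CWC and CDC5L genes, 15 of 28 RBM genes, 8 of 13 SR genes and 14 of 21 hnRNP genes were negative. With the values as deposited, the DHX median was 0.01 in place of -0.025. That of the 3 MBNL and ESRP genes above the level limit was also 0.01 in place of -0.025. The DDX, SR and hnRNP medians stayed negative as deposited, at -0.05, -0.04 and -0.02, beside 0 for all genes.

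The members also varied little among themselves. The robust standard deviation of their differences (from the median absolute deviation) was 0.104, against 0.148 for all genes above the limit. A difference of at most 0.1 in size was seen for 80 of 140 members (57.1%), against 48.4% of all genes, and a difference of at most 0.2 for 117 (83.6%), against 77.4%. Bright probe sets vary less, and 72 members lay in the brightest of 3 equal bins of all genes by array signal. In that bin the spread was 0.0741 for the members, against 0.133 for all genes. It was 0.119 against 0.148 in the middle bin (44 members) and 0.111 against 0.163 in the dimmest bin (24 members). Where different probe sets of the same gene could be compared, over 67 genes, their differences corresponded to a spread of 0.126, so most member differences are no larger than the disagreement between probe sets.

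**Figure D1:**
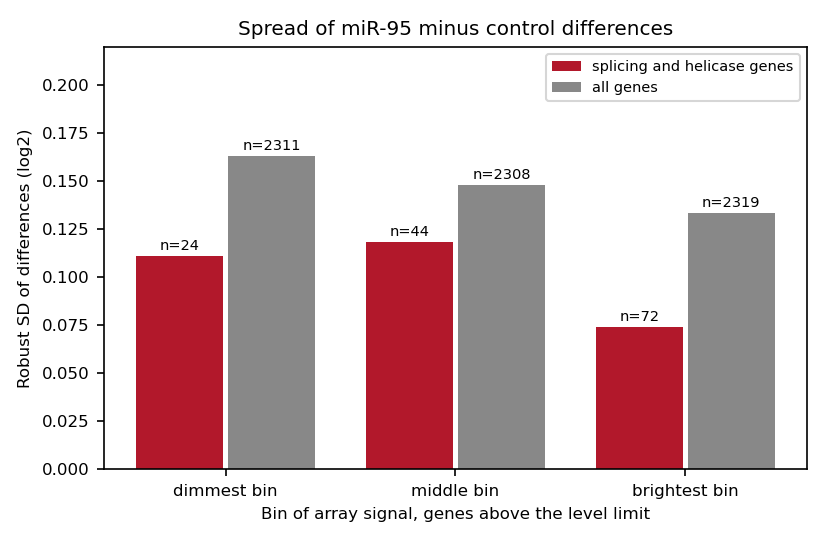
Robust standard deviation of the miR-95 minus control differences (log2, y axis) in 3 equal bins of array signal (x axis), for the splicing and helicase genes in red and for all genes in grey, with the number of genes over each bar. The red bar is the shorter in each bin, at 0.111 against 0.163 in the dimmest and 0.0741 against 0.133 in the brightest.

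**Figure D2:**
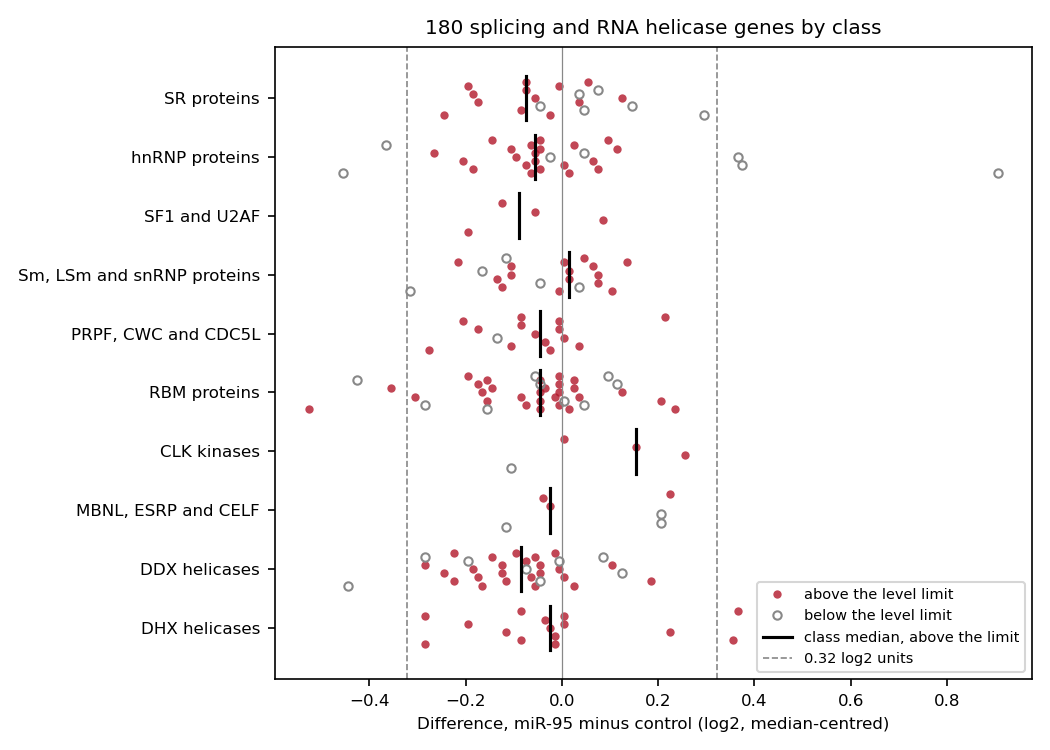
Difference between miR-95 and control (log2, x axis) for each of the 180 genes by class (y axis). Filled points are the 140 genes above the level limit, open points the 40 below it, black bars the class medians above the limit and dashed lines 0.32 log2 units either way. Among the filled points RBM17 (-0.525) and RBM15 (-0.355) lie past the left line, and DHX33 (0.365) and DHX40 (0.355) past the right line.

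RBM17 (SPF45), a splicing factor that contacts U2 snRNP-associated proteins at the 3′ splice site, had the largest difference among the 140 members. Its value was 7.55 in miR-95 cells and 8.04 in control cells, a difference of -0.525 or 1.44-fold lower. It ranked 81st from the lowest of 6938 genes, and its miR-95 value lay just above the level limit. RBM15, which brings the m6A methyltransferase complex to RNA, read 9.44 in miR-95 cells and 9.76 in control cells. This is 1.28-fold lower (-0.355), but the difference was -0.32 with the values as deposited and then lay just short of the limit used here. RBM34 was the next lowest RBM gene above the level limit, at 8.24 in miR-95 cells and 8.51 in control cells (-0.305).

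On the higher side stood a pair of DEAH-box genes, both on chromosome 17. DHX33, a nucleolar helicase that acts in ribosomal RNA synthesis, read 10.10 in miR-95 cells and 9.70 in control cells. It was 1.29-fold higher (0.365) and ranked 135th from the highest gene. DHX40 read 10.65 in miR-95 cells and 10.26 in control cells, 1.28-fold higher (0.355). Over all 11 members above the limit on that chromosome the median was -0.015.

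Among SR proteins and their partners, 13 of 19 genes were above the limit, with a median difference of -0.075, 10 negative and 3 positive. TRA2A, a splicing activator that binds exonic enhancers, was the lowest, at 8.39 in miR-95 cells and 8.60 in control cells (-0.245). SRSF4, SRSF11 and SRSF7 followed at -0.195, -0.185 and -0.175. SRSF1, the classical enhancer-binding SR protein, was the highest, at 11.69 in miR-95 cells and 11.53 in control cells (0.125). SRRM2, a scaffold of the nuclear speckles in which splicing factors gather, differed by 0.055. SRSF2, SRSF3 and SRSF6 lay between -0.075 and -0.005. The 3 CLK kinases above the limit all had positive differences, with a class median of 0.155. CLK3 read 10.43 in miR-95 cells and 10.14 in control cells (0.255), and CLK2 read 8.24 in miR-95 cells and 8.05 in control cells (0.155). CLK1 differed by 0.005 and CLK4, below the limit, by -0.105.

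The hnRNP and PTB genes had 21 of 28 members above the limit and a median of -0.055, with 14 negative and 7 positive. HNRNPA2B1, which packages nascent transcripts with HNRNPA1, was the lowest, at 10.18 in miR-95 cells and 10.41 in control cells (-0.265). HNRNPR followed at 10.03 in miR-95 cells and 10.20 in control cells (-0.205), and HNRNPK at -0.185. HNRNPUL2 was the highest, at 9.27 in miR-95 cells and 9.12 in control cells (0.115). PTBP1, a repressor of many exons, differed by -0.145, and its neuronal paralog PTBP2 by 0.095. HNRNPC, HNRNPL and HNRNPM each lay at -0.045 or -0.055. Several hnRNP genes, HNRNPA1 among them, have processed pseudogene copies of similar sequence, so signal shared between their probe sets cannot be told apart here.

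At the 3′ end of the intron, SF1 binds the branch point, U2AF2 the polypyrimidine tract and U2AF1 the terminal AG. U2AF1 read 8.53 in miR-95 cells and 8.69 in control cells (-0.195), and U2AF2 read 11.98 in miR-95 cells and 11.86 in control cells (0.085). SF1 differed by -0.055 and U2AF1L4, a paralog of U2AF1, by -0.125. The PRPF and CWC genes with CDC5L had a median of -0.045 over 14 genes, 11 of them negative. CWC22, which brings the exon junction protein EIF4A3 to the spliceosome, was the lowest, at 9.51 in miR-95 cells and 9.75 in control cells (-0.275). PRPF18, a factor of the second catalytic step, read 7.93 in miR-95 cells and 8.10 in control cells (-0.205). PRPF31, which holds the U4/U6 and U5 particles together, was the highest, at 10.76 in miR-95 cells and 10.51 in control cells (0.215). PRPF8, the core of the catalytic centre, differed by -0.005, and PRPF19 and CDC5L, which share a complex, by -0.085 each.

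Besides the CLK kinases, the Sm, LSm and snRNP proteins were the class with more positive than negative members, 9 against 6 of 15 above the limit, and a median of 0.015. The 3 proteins of the U1 particle, which recognises the 5′ splice site, differed by -0.105 (SNRNP70), 0.015 (SNRPA) and 0.135 (SNRPC). SNRPC read 9.08 in miR-95 cells and 8.91 in control cells. The U2 proteins SNRPA1 and SNRPB2 differed by 0.005 and 0.065. Of the 7 proteins of the Sm ring that surrounds the snRNAs, 4 were above the limit. SNRPD1 was the lowest of them, at 10.39 in miR-95 cells and 10.57 in control cells (-0.215), and SNRPB the highest, at 12.54 in miR-95 cells and 12.43 in control cells (0.075). The 8 proteins of the U4, U5 and U6 particles had a median of -0.005. SNRNP25 and SNRNP48 of the minor spliceosome, which removes a rare intron type, differed by 0.015 and 0.045. LSM12, a gene with an LSm domain, differed by -0.135.

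The 28 RBM genes above the limit had a median of -0.045 with 21 negative, and those past the 0.32 limit were RBM17 and RBM15. The 2 RBM genes with the largest positive differences were RBM38, which binds and stabilises target messenger RNAs, and RBM15B. RBM38 read 8.09 in miR-95 cells and 7.82 in control cells (0.235). RBM8A, a core subunit of the exon junction complex, differed by -0.155, and RBM7, of the nuclear exosome targeting complex, by -0.195. RBM22, which contacts the catalytic RNA of the spliceosome, differed by -0.085. The splicing regulators RBM5, RBM6 and RBM10, which are related in sequence, lay at 0.125, 0.025 and 0.025. RBM39, a U2AF-related factor, differed by -0.005.

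Of the regulators best known for tissue-specific patterns, ESRP2, which promotes epithelial exon choices, read 9.76 in miR-95 cells and 9.50 in control cells (0.225). ESRP1, its paralog with the same role, was below the limit on both arrays, at 5.01 in miR-95 cells and 5.09 in control cells. MBNL1 and MBNL2, regulators first studied in muscle, differed by -0.04 and -0.025. The value of MBNL1 is the mean of 2 probe sets that disagreed. The brighter read 12.10 in miR-95 cells and 12.29 in control cells (-0.225), and the dimmer 8.75 in miR-95 cells and 8.57 in control cells (0.145).

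The DDX genes had a median of -0.085 over 24 genes above the limit, with 20 negative and 4 positive, and 0 passed the 0.32 limit, against 8.01% of all genes. The 24 include the pseudogenes DDX11L9 (-0.285) and DDX11L1 (-0.115), which encode no helicase. Without pseudogenes the DDX median minus that of all genes was -0.035, against -0.05 with them. The DHX genes had a median of -0.025 over 15, with 10 negative and 5 positive, and 2 passed the 0.32 limit, both higher, against 2.93% of all genes. With the values as deposited, 18 of the 24 DDX genes and 6 of the 15 DHX genes were negative. By role, the helicases differed in how widely they were spread. In the spliceosome, 8 ATPases act in sequence, and 7 of them were measured. DDX46 (-0.075) places U2 on the branch point, DDX23 (-0.065) exchanges U1 for U6, and SNRNP200 (0.075) unwinds U4 from U6. DHX16 (0.005) and DHX38 (-0.035) prepare the catalytic steps, and DHX8 (-0.015) releases the spliced message. These 6 lay within 0.1 of 0. DHX15, which dismantles the spent complex, was the exception, at 10.63 in miR-95 cells and 10.88 in control cells (-0.285). DHX35, found in catalytic spliceosomes, differed by -0.195.

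The helicases of ribosome assembly were spread more widely. Of 14 measured, 13 were above the limit, and their robust standard deviation was 0.193. It was 0.0593 for the spliceosome ATPases and 0.148 for all genes above the limit. The ATPases ran from -0.285 to 0.075, and this measure gives little weight to the outlying DHX15. DHX37, which frees the U3 small nucleolar RNA from the small subunit precursor, read 8.81 in miR-95 cells and 9.06 in control cells (-0.285). DDX10 read 9.07 in miR-95 cells and 9.28 in control cells (-0.245), and DDX50, a nucleolar helicase, 9.20 in miR-95 cells and 9.39 in control cells (-0.225). At the other end stood DHX33 (0.365), DDX52 at 10.16 in miR-95 cells and 9.94 in control cells (0.185), and DDX49 at 9.66 in miR-95 cells and 9.52 in control cells (0.105). Both role groups were drawn up after the values were seen and their contrast was not tested. Helicases of tRNA processing, translation, export and decay, also grouped after the values were seen, had a median of -0.05 over 8 genes. Their values ran from -0.165 (DDX1) to 0.005, and 7 (87.5%) were negative, against 59.5% of all genes. The 8 genes include DDX6, of decapping and silencing, at -0.095 and the export factors DDX19A and DDX19B at -0.045 and -0.055. DDX20, the Gemin3 subunit of the complex that loads Sm rings, differed by -0.225, and DHX30, which acts on mitochondrial RNA, by 0.225.

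**Figure D3:**
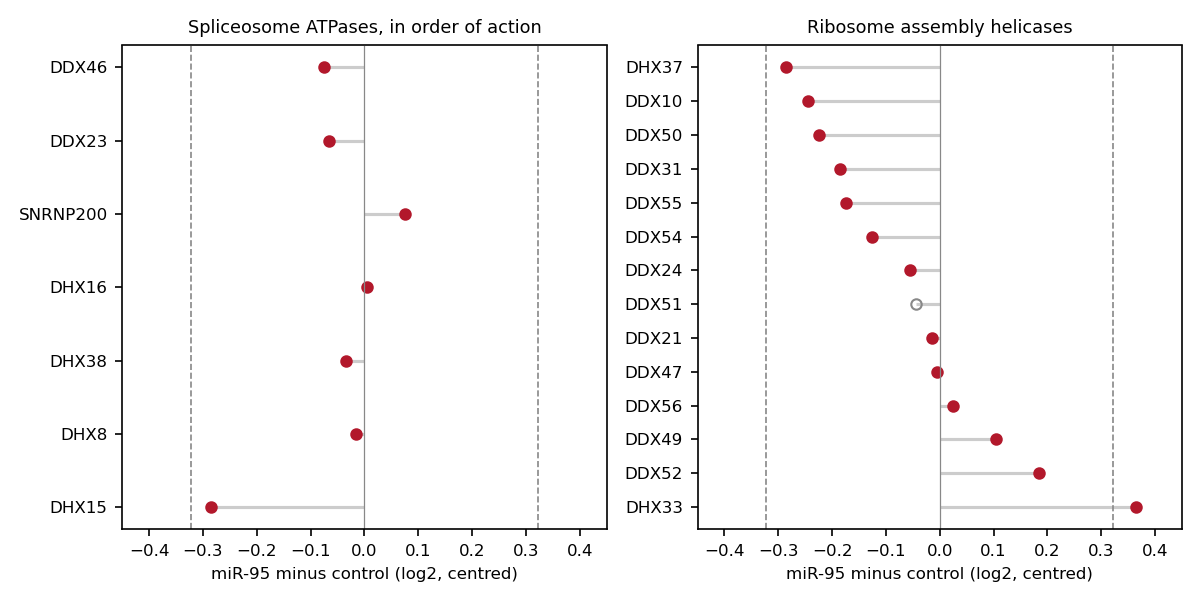
Difference between miR-95 and control (log2, x axes) for the 7 measured spliceosome ATPases in their order of action (left) and for the 14 measured ribosome assembly helicases ordered by difference (right). The open point is below the level limit and dashed lines mark 0.32 log2 units. On the left DHX15 (-0.285) stands apart from the others, and on the right values run from -0.285 (DHX37) to 0.365 (DHX33).

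Among 17 pairs of paralogs or related members, chosen after the values were seen and partly sharing a gene, 5 had opposite signs, and 9 with the values as deposited. The widest gap was that of RBM15B over RBM15, 0.56 on the log2 scale. RBM15B read 8.99 in miR-95 cells and 8.75 in control cells (0.205), and RBM15 went the other way (-0.355). Both proteins serve the m6A methyltransferase complex. TRA2A lay 0.28 below TRA2B, which differed by 0.035, and PTBP2 lay 0.24 above PTBP1. DDX50 lay 0.21 below DDX21, at -0.015. In contrast, DDX19A and DDX19B differed from each other by 0.01, and so did HNRNPH3 and HNRNPH1 in size. MBNL2 and MBNL1 differed by 0.015 with the mean of the MBNL1 probe sets, which disagreed, and MBNL1 lay at -0.22 with the brighter of them.

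The 40 members below the level limit ranged from -0.455 to 0.905, with a median of -0.035, 22 negative and 18 positive. Of these, 7 were past the 0.32 limit (17.5%, against 12.5% of all genes below the level limit), and 5 of the 7 were hnRNP genes or pseudogenes. The pseudogene HNRNPA1P33 read 6.63 in miR-95 cells and 5.69 in control cells (0.905), and HNRNPA3P1 4.04 in miR-95 cells and 4.46 in control cells (-0.455). HNRNPA3 read 5.61 in miR-95 cells and 5.20 in control cells (0.375), and HNRNPCL2 6.89 in miR-95 cells and 6.49 in control cells (0.365). RBM24, a muscle splicing regulator, read 6.95 in miR-95 cells and 7.34 in control cells (-0.425). HNRNPA1L2 differed by -0.365. The testis-type helicases were near the lowest signals: DDX25 read 3.99 in miR-95 cells and 4.40 in control cells (-0.445), and DDX4 and DDX43 differed by 0.085 and 0.125. Of the 3 pseudogenes above the limit, DDX11L9 (-0.285) and DDX11L1 (-0.115) belong to a family of near-identical copies at chromosome ends and encode no helicase. The third, HNRNPA1P10, read 12.31 in miR-95 cells and 12.32 in control cells (-0.045). HNRNPA1 itself read lower, at 8.67 in miR-95 cells and 8.57 in control cells (0.065). Which transcripts these 2 probe sets read was not tested.

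Lists of other RNA processing genes had medians on both sides of 0. These medians and the sign counts depend on the centring too, and the sign counts are to be read against 59.5% negative among all genes. Of 47 further spliceosome proteins, 34 were measured and 33 were above the limit, with a median of -0.055, 23 negative, and 0 past the 0.32 limit, against 8.01% of all genes. Of 38 further splicing regulators, 23 were measured and 20 were above the limit (median -0.08, 17 negative), and 1 (5%) was lower past the 0.32 limit, against 5.09% of all genes. That was SAFB2, a scaffold attachment factor, at 8.89 in miR-95 cells and 9.26 in control cells (-0.405). Its paralog SAFB differed by -0.095. Minus the median of all genes, the median was -0.02 for the further spliceosome proteins and -0.045 for the further splicing regulators. The SMN complex genes, which assemble snRNPs, had a median of -0.055 over 7, and those of the exon junction, export and nonsense-mediated decay 0.025 over 11. The other RNA helicases had a median of 0.055 over 4 genes. In these last 3 lists 0 genes passed the 0.32 limit, against 8.01% of all genes.

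Gene size and promoter sequence were features that the symbol rule did not use. Longer genes had slightly lower differences: Spearman's rho with genomic span was -0.147 across 140 members and -0.236 across all 6938 genes. These rank correlations are across genes, which share the same 2 arrays and are no replicates. In the shortest of 4 equal bins of all genes by span, 35 members had a median of -0.025, against 0.015 for all genes there, and in the longest bin 15 members had a median of -0.04, against -0.075. With mean level rho was 0.0507 across the members and -0.0556 across all genes.

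RefSeq promoters of 300 bases (250 before and 50 after the gene start) were at hand for 124 of the 140 members and for 5741 of all genes above the limit. Exact matches to 9 short motifs were searched on both strands. The ETS motif CCGGAAG was found in 33.1% of member promoters, 21.5% of those of all genes above the limit and 10.7% of all 27305 promoters. The NF-Y motif CCAAT was found in 49.2%, 37.7% and 35.7% of these sets, and the SP motif GGGCGG in 63.7%, 73.7% and 44.6%. Members with the ETS motif had a median difference of -0.045 and those without it -0.055, and the same 2 values held with and without the NF-Y motif. Other motifs rest on few promoters: the medians with and without a match were -0.125 and -0.045 for NRF1 (7 promoters), -0.105 and -0.045 for CRE (7) and 0.035 and -0.055 for E2F (5). For NRF1, CRE and E2F the medians over all genes above the limit were -0.035, -0.065 and -0.03 with a match. The motifs NRF1 (GCATGCGC), YY1 (AAGATGGC), E-box (CACGTG), CRE (TGACGTCA), E2F (TTTCCCGC) and the TATA box (TATAAA) each had a match in 5 to 17 member promoters. The shares in members, in all genes above the limit and in all promoters were 5.65%, 6.31% and 3.27% for NRF1, 5.65%, 6.29% and 3.03% for YY1, and 13.7%, 10.4% and 7.43% for the E-box. They were 5.65%, 3.43% and 1.98% for CRE, 4.03%, 2.86% and 1.66% for E2F, and 6.45%, 4.65% and 11.95% for the TATA box. Median GC content was 62.2% in member promoters and 66.0% in those of all genes above the limit. Matches are a description and not binding sites.

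**Figure D4:**
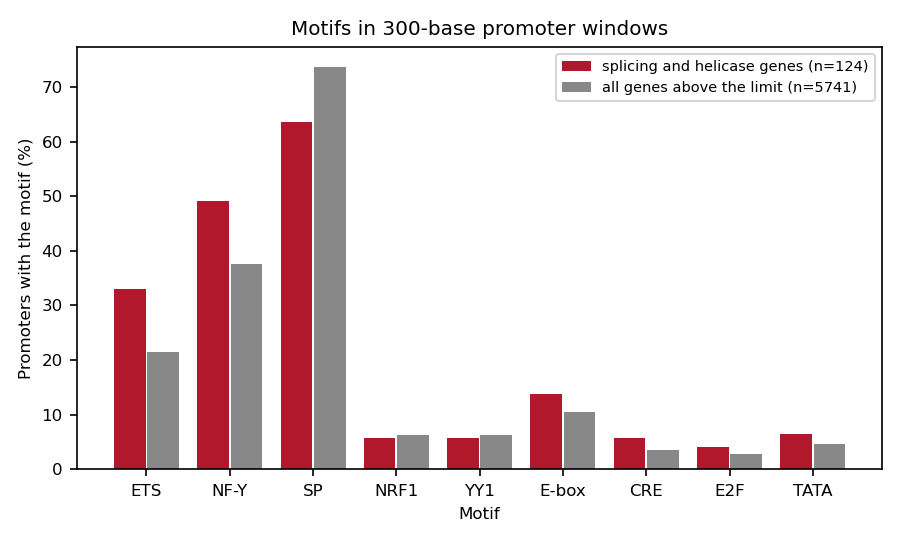
Share of 300-base promoter windows (y axis, %) that hold each of 9 motifs (x axis), for 124 splicing and helicase genes in red and 5741 genes above the level limit in grey. The red bar is taller for ETS (33.1% against 21.5%) and NF-Y (49.2% against 37.7%) and shorter for SP (63.7% against 73.7%).

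The promoters of RBM15 and RBM15B are printed because these paralogs had the widest gap, and that of RBM17 because it had the largest difference; NF-Y matches on either strand are in capitals. All come from RefSeq (GRCh38.p14, plus strand): RBM15 at chr1:110339127-110339426, RBM15B at chr3:51391035-51391334 and RBM17 at chr10:6088784-6089083. The RBM15 window held 6 NF-Y matches, a number reached by 1 of 124 member promoters and by 0.136% of all promoters. The RBM15B and RBM17 windows held 0, and none of the 3 held the ETS motif. The RBM15 and RBM15B windows both held the E-box and SP motifs, and the RBM15B window also held the YY1 motif. Those matches are not marked in the sequences, and any link of the matches to the gap was not tested.
RBM15: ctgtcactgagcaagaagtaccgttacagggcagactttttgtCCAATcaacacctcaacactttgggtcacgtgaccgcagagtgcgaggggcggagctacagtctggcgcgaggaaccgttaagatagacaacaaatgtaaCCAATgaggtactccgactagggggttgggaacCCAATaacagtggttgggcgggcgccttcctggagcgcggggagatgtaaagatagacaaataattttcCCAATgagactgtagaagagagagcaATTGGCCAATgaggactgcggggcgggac
RBM15B: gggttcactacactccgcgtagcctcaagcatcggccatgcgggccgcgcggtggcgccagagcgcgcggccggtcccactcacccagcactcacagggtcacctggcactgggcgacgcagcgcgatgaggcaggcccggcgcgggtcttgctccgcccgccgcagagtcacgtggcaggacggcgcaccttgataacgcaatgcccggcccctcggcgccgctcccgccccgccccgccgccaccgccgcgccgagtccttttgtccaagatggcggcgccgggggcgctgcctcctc
RBM17: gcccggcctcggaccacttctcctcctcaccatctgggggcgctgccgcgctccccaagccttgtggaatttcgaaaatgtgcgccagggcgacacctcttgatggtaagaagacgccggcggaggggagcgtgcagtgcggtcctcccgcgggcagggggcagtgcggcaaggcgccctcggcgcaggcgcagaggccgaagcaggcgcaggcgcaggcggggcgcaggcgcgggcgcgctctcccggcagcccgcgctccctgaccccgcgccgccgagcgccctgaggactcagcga

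Over the whole arrays differences were small as well. The arrays correlated at 0.9959 (Pearson) over 23641 probe sets. Epithelial markers were above the limit on both arrays: KRT8, KRT18, KRT19 and EPCAM differed by -0.195 to 0.145. The prostate markers KLK2, KLK3 and FOLH1 were below it, between 4.28 and 6.66. Of the fibroblast, leukocyte and endothelial markers, 7 were measured, and CD68 and KDR were the ones above the limit, at 0.105 and 0.285. The fibroblast marker LUM, below it, differed by -1.325, the lowest value of all 13864 genes, and DCN by -0.175. Their part in the splicing and helicase values was not tested.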

How the data were processed

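RNA of 1 miR-95 and 1 control PC3 culture was measured on Affymetrix gene arrays. The deposited values are log2 expression per probe set, as read from their range; per the submitters' processing notes the tool was Affymetrix Expression Console 1.2. Nothing used here states the summarisation, background correction or scaling between arrays, and a scaling that forces equal distributions would hide a shift of all transcripts together. Platform annotation named 14088 of 23641 probe sets, and all matched RefSeq GRCh38.p14 by gene ID (13864 genes), used for names, span and promoters. Several probe sets of 1 gene were averaged on the log2 scale, and each array was centred on its median (7.495 miR-95, 7.46 control). With 1 array per group no test, error or p-value exists, and limits of 0.32 log2 units and of 1.5-fold were used. The number of arrays limits the precision. Named by rule were the 2 members above the level limit with the largest difference each way in each of 10 classes, and members and list genes above the level limit past 0.32; all other genes are named for their role or value, after their values were seen. The members and lists were chosen with earlier results of these data known. The role groups, paralog pairs and motifs were chosen after seeing the values. Other settings tried were no centring, loess (span 0.4) and quantile normalization, other level limits, the brightest probe set, an offset of 32 and leaving out pseudogenes. A planned look at protein motifs was not run, for want of protein sequences. Centring and counting were tested on simulated arrays with known changes. Those changes were larger than any member difference above the level limit and were counted at 1.5-fold. The simulation therefore did not cover the 0.32 limit. Python 3.11.15, pandas 2.3.3, numpy 2.4.6 and scipy 1.17.1 were used.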

Additional observations from a re-analysis of the deposited data

How the results depend on the processing

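Under the 10 alternatives, 220 of 230 values of medians, counts, spread and span relations stayed close to those reported (within 1.5 times for a count or the spread ratio, 0.126 for a median and 0.1 for a correlation), and so did all but 1 of the named members' differences. That count is a weak check. Medians were scored minus that of all genes, so leaving out the centring could not move them, the spread ratio or the correlations. The 0.126 was wider than every class and list median so scored except that of the CLK kinases (0.19). A median could therefore change sign and still count as close. The median of the members minus that of all genes stayed between -0.02 and 0. The spread of the members over that of all genes stayed between 0.65 and 0.727. The count of members lower by 0.32 log2 units or more, 2 as reported, was 1 with values as deposited, 1 with loess and 1 with quantile normalization, where RBM15 lay at -0.32, -0.316 and -0.32. It was 1 with the level limit at the 75th percentile, which leaves out RBM17, 4 with it at the 25th percentile and 6 with no filter. The count higher by that much was 4 with the 25th percentile and 5 with no filter, and 1 member, HNRNPA1P33, was then 1.5-fold higher; these settings add dim genes. The share of members with a negative difference was 55% as deposited, 56.4% after loess and 54.3% after quantile normalization, against 69.3% as reported, and these settings put the median of all genes above the limit at about 0 in place of -0.035. With the brightest probe set, MBNL1 was at -0.22, against -0.04 as the mean of its probe sets. The median of the SF1 and U2AF genes minus that of all genes was 0.06 with the limit at the 75th percentile, which leaves fewer than the 4 genes behind the -0.055 of the main setting. No paired analysis was possible because each group holds 1 array. The signal of dim probe sets limits what can be said of the 40 members below the level limit.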
